A study of Mus musculus with 16 samples.

Results

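The genes of the cytosolic ribosomal proteins were examined in brain and liver of mice that carry HdhQ111, a CAG knock-in allele of the Huntington's disease gene. They were chosen by symbol, with earlier results of these data known. Every symbol on the array made of Rpl or Rps and a digit was taken, with Rplp0, Rplp1, Rplp2 and Rpsa, and without the S6 kinase genes and pseudogenes. This gave 61 genes, 38 of the large and 23 of the small subunit, out of 9026 genes with a name. They were measured by 92 of the 12760 named probes. The mutant group was 4 male HdhQ111/+ heterozygotes on C57BL/6J, 18 weeks old, and each of them gave a brain and a liver sample. Every array compared the RNA of 1 such mouse with RNA pooled from 4 wildtype C57BL/6J males of that age and tissue, and was repeated with the dyes exchanged. The allele sits at the gene's own locus, and whole organs were homogenised, so that the values average over all cell types of an organ.

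A ribosome consists of a large and a small subunit, each built from ribosomal RNA and many proteins that are encoded by separate genes and needed in nearly equal numbers. In liver, the amount of ribosomes follows feeding and growth signals, and in neurons local protein synthesis at synapses depends on them. Mammalian mRNAs of ribosomal proteins start with a C followed by a run of pyrimidines, the 5′ terminal oligopyrimidine motif, through which mTOR and the RNA-binding protein Larp1 control their translation together. Control of that kind acts on translation and need not show in the amount of mRNA, which is what the arrays measured.

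The motif shared by these mRNAs is shown for 3 of the genes discussed further on, since mTOR and Larp1 act through it. RefSeq (GRCm38.p6) start windows were matched by symbol for 53 of the 61 genes, giving 61 windows of 250 bases before and 50 bases from the start. Of the 28 genes picked by the naming rules further below, which leave out genes named afterwards, 22 had a window. The search of these windows for the run did not cover every chromosome, so the count that follows is a lower bound. In at least 3 of these genes the annotated first base was a C with at least 4 pyrimidines after it. Each line gives 10 bases before the start and 20 from it on, 5′ to 3′ on the gene's strand. Capitals mark the pyrimidines from the start base on. In each line the pyrimidines also reach upstream of the start base.
Rplp2 (chr7:141447641-141447670, plus strand): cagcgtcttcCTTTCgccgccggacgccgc
Rps27 (chr3:90213629-90213658, minus strand): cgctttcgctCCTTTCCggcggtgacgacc
Rps6 (chr4:86857348-86857377, minus strand): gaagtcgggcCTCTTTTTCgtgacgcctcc

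A C at the annotated start with at least 4 pyrimidines after it was found in 11 of the 61 windows of ribosomal protein genes (18.0%). Among all 32851 windows the share was 2.51%. Within 10 bases of the start, such a C was found in 52.5% of the windows of these genes and in 30.7% of all. The base before the C was not examined, so these counts include runs that began further upstream. Of the promoter motifs searched on both strands, CCGGAAG, a core recognised by Ets factors, was in 37.7% of their windows and in 8.86% of all. ATGGCGG, the core bound by Yy1, was in 14.8% and 4.05%. GGGCGG, the core bound by Sp1, was in 55.7% and 35.7%, and it shares its ending, GGCGG, with ATGGCGG. These shares describe letters in the windows and are no measure of binding.

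All values are log2 ratios, likely of HdhQ111 over the wildtype pool, so that a value above 0 is called higher and one below 0 lower. The order of the channels in the labels and the design give that direction, and no header states it. A mouse's value is the mean of its dye-swapped arrays, the mice are the replicates, and errors are SDs over 4 mice unless stated. The 16 arrays carried 20794 probes each, and spot intensities were not analysed here, so neither signal over background nor the level of a tissue marker could be examined; the number of arrays limits the precision. Names were shifted by 11 rows against the values throughout. No source states that shift, and it was inferred from these data. With names as deposited, or shifted by 10 or 12 rows, the low liver values described next were absent, with medians of 0.0050, -0.025 and -0.016. In brain, the 5 pituitary markers measured were all lower, with a median of -2.75, and Prl (adjusted p = 0.00547 in limma) and Pomc passed the test. The median of the 7 other marker lists lay between -0.22 and 0.069 in brain, and that of all 8 lists between -0.21 and 0.16 in liver.

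In liver, ribosomal protein genes lay below 0 nearly throughout. Of the 60 genes tested, 55 had a mean below 0, compared with 56.6% of all named genes tested, and 5 a mean above 0, compared with 43.4%. Their median log2 ratio was -0.18, while the median of all 8803 genes was -0.030. The median over the ribosomal protein genes was -0.24 in mouse 1, -0.28 in mouse 2, -0.19 in mouse 3 and -0.038 in mouse 4, so that mouse 4 stood closest to the pool. Mouse 4 had the highest of the 4 values in 38 of 60 genes (27.2% of all genes). Over all genes, the corresponding medians were -0.073, -0.042, -0.022 and -0.0042. Of the ribosomal protein genes measured in each mouse, 57 of 61, 54 of 60, 51 of 60 and 40 of 60 were below 0 in mice 1 to 4, compared with 57.4%, 55.9%, 53.9% and 51.1% of all genes.

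The low values recurred from mouse to mouse. In liver 33 of 60 ribosomal protein genes (55.0%) were below 0 in all 4 mice, compared with 14.2% of all genes. None was above 0 in all 4, compared with 6.52% of all genes. The mean was larger than the SD over mice in 39 of the 60 genes, a count without a share over all genes beside it. The median SD was 0.15, compared with 0.23 over all genes. With limma, 0 of the 60 genes had an adjusted p under 0.05, as had 0% of all genes, and the smallest adjusted p was 0.575. At an unadjusted p under 0.05, 17 of the 60 were lower and 0 higher, compared with 5.24% and 3% of all genes. That count was 4 without mouse 1, 2 without mouse 2, 1 without mouse 3 and 18 without mouse 4. With the mutant RNA in Cy5 alone, the median of the ribosomal protein genes in liver was 0.018. The pool is a single control sample, so the spread among wildtype mice is left out of every test here. In RNA from a whole organ, fewer cells of a type cannot be told apart from less RNA per cell. The 5 hepatocyte markers measured also had a mean below 0 (56.6% of all genes), with a median of -0.18. Alb (-0.0050) and Ass1 (-0.019) were close to 0, and Ttr, Tat and Apoa1 had -0.18, -0.19 and -0.20. Of the 5 markers, 1 was below 0 in all 4 mice (14.2% of all genes). The medians of the 5 markers in mice 1 to 4 were -0.14, -0.12, 0.015 and -0.0068. Their part in the values of the ribosomal protein genes was not tested.

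**Figure D1:**
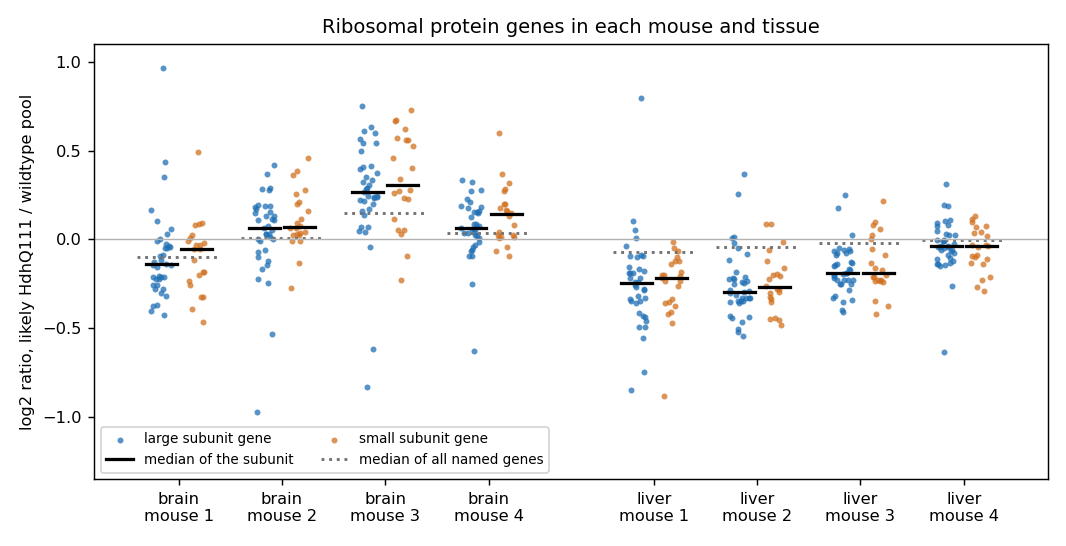
Log2 ratio (likely HdhQ111 over wildtype pool, y axis) of each ribosomal protein gene in each mouse and tissue (x axis), with points for large subunit genes in blue and small subunit genes in orange, black bars for the median of each subunit and dotted lines for the median of all named genes. In liver both bars lie below the dotted line in every mouse, least in mouse 4, while in brain the large subunit's median goes from -0.14 in mouse 1 to 0.27 in mouse 3.

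Rpl8, a protein next to the site where peptide bonds form, had the lowest mean in liver. Its values were -0.27, -0.52, -0.41 and -0.63 in mice 1 to 4, with a mean of -0.46 ± 0.16 (adjusted p = 0.575 in limma). All 4 mice were below 0, and mouse 4, which was otherwise closest to the pool, was lowest. That value rested on 1 of 3 probes, which read -2.09 in mouse 4, while the others read 0.30 and -0.11. The means of the 3 probes over the mice were -0.88, -0.21 and -0.29. Without the lowest probe, a choice made after seeing the data, Rpl8 was at -0.31, -0.43, -0.34 and 0.094 with a mean of -0.25 ± 0.23, and 14 of the 60 genes had a lower one.

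The stalk of the large subunit, formed by Rplp0, Rplp1 and Rplp2, recruits the elongation factors. Rplp0 in liver was at -0.55, -0.25, -0.35 and -0.10 in mice 1 to 4, with a mean of -0.31 ± 0.19. Rplp1 was at -0.33, -0.34, -0.21 and -0.035, with a mean of -0.23 ± 0.14. Rplp2 was at -0.36, -0.35, -0.20 and -0.14, with a mean of -0.26 ± 0.11. All 3 stalk genes were thus below 0 in every mouse, and least so in mouse 4.

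Rpl5 and Rpl11 enter the large subunit together with 5S rRNA, and when unassembled they bind Mdm2 and so bear on p53. In liver Rpl5 was at -0.24, -0.44, -0.23 and -0.075, and its mean was -0.24 ± 0.15. Rpl11 was at -0.29, -0.47, -0.23 and -0.13, and its mean was -0.28 ± 0.14. Both were lowest in mouse 2 and nearest to 0 in mouse 4. Rpl4 and Rpl39 line the tunnel through which the new chain leaves. Rpl4 was at -0.35, -0.33, -0.28 and -0.089 with a mean of -0.26 ± 0.12, and Rpl39 at -0.46, -0.34, -0.20 and -0.048 with a mean of -0.26 ± 0.18. Rpl41, among the smallest proteins of the ribosome, had a mean of -0.24 ± 0.14 in liver and Rpl12, at the base of the stalk, -0.17 ± 0.10. Rpl7 had -0.12 ± 0.080. Each of these genes was below 0 in all 4 livers.

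Among tested small subunit genes, Rps27l had the lowest mean in liver, with -0.35, -0.45, -0.42 and -0.087 in mice 1 to 4 and a mean of -0.33 ± 0.16. Rps13 varied little between mice, at -0.23, -0.30, -0.23 and -0.27, and its mean was -0.26 ± 0.034. Rps29, which with Rps28 belongs to the head of the subunit, was at -0.26, -0.48, -0.37 and -0.043, and its mean was -0.29 ± 0.19. These 3 genes were below 0 in every mouse. Rps28 had a mean of -0.27 ± 0.24 and was above 0 in mouse 4 (0.075). Rps14, on the platform of the subunit, had -0.26 ± 0.12, and Rpsa, which is also known as a laminin receptor, -0.24 ± 0.093, both with 4 of 4 mice below 0. Rps6, the substrate of the S6 kinases downstream of mTOR, differed in sign between mice, at -0.36, 0.085, -0.13 and 0.069, with a mean of -0.084 ± 0.21. The value of mouse 2 rested on 1 of its 2 probes, which read 0.40 while the other read -0.23. In mouse 4 both probes were above 0 (0.0565 and 0.081).

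Only 5 of the 60 genes had a mean above 0 in liver. The highest was Rpl22l1, a copy of Rpl22 that can take its place in the ribosome, with 0.80, 0.37, 0.25 and -0.040 in mice 1 to 4 and a mean of 0.34 ± 0.35. It was above 0 in 3 of the 4 mice, and the mean was smaller than the SD. Rpl22 itself was at -0.089, -0.11, 0.18 and 0.077, with a mean of 0.012 ± 0.14. Its 2 probes differed in sign, with liver means of -0.19 and 0.22. The other 3 genes, Rpl6, Rps12 and Rps15a, were named after their values were seen and had means of 0.057, 0.0012 and 0.0020. The probes of Rpl6 also differed in sign, with liver means of -0.18 and 0.30, as did those of Rps12 (-0.0215 and 0.0239). Rps20 had a value in 1 liver (-0.88 in mouse 1) and in no brain, and was not tested.

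In brain, these genes were mostly a little above 0, and the mice differed more. Of the 59 ribosomal protein genes tested, 47 had a mean above 0, compared with 56.7% of all named genes tested, and 12 a mean below 0 (43.3% of all genes). Their median was 0.096 while that of all genes was 0.023. The medians of mice 1 to 4 were -0.12, 0.066, 0.28 and 0.076, next to -0.098, 0.0080, 0.15 and 0.038 over all genes. In mouse 1, 46 of 60 were below 0 (63.4% of all genes), and in mouse 3, 54 of 59 were above it (65.9% of all genes). Mouse 3 had the highest of the 4 values in 41 of 58 genes (70.7%) and mouse 1 the lowest in 44 (75.9%). Over all genes, mouse 3 was highest in 45.6% and mouse 1 lowest in 44.6%. The order of the mice among the ribosomal protein genes was thus the order found over all genes.

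The brain values did not hold up against that spread. Ribosomal protein genes above 0 in all 4 brains numbered 5 of 58 (6.1% of all genes were), and 0 were below 0 in all 4 (3.98%). The median SD over mice was 0.25, compared with 0.28 over all genes. Of 59 genes, 5 had a mean larger than their SD, again without a share over all genes. With limma, 0 of 59 passed the adjusted threshold, which 0.035% of all genes did, and the smallest adjusted p was 0.999. At an unadjusted p under 0.05, 0 were higher (1.89% of all genes) and 0 lower (2.03%). Without mouse 3 the median was 0.020 and 36 genes were above 0, and without mouse 1 the median was 0.16. With the mutant RNA in Cy3 alone, the median was -0.14. The low pituitary markers came from these brain arrays, and their part in the values of the ribosomal protein genes was not tested.

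Rps16, a small subunit protein that contacts the initiator tRNA, had the highest mean in brain. It was at 0.082, 0.20, 0.67 and 0.32 in mice 1 to 4, with a mean of 0.32 ± 0.26 (adjusted p = 0.999 in limma). Rps9, which has a part in decoding accuracy, was at 0.086, 0.16, 0.34 and 0.60, with a mean of 0.30 ± 0.23. Both were above 0 in all 4 mice. For Rps9 the probes differed, with a mean of 0.038 for one and of 0.62, from 3 mice, for the other. Rps29 was also above 0 in every brain, at 0.026, 0.066, 0.56 and 0.16, and its mean was 0.20 ± 0.24.

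The other members with small p in brain were above 0 on average but not in every mouse. Rpl39 had a mean of 0.25 ± 0.25, Rpl41 of 0.24 ± 0.36, Rpl12 of 0.21 ± 0.30 and Rps28 of 0.20 ± 0.27. Of the stalk, Rplp2 was at -0.024, 0.030, 0.54 and 0.28 with a mean of 0.21 ± 0.26. Rplp1 had 0.21 ± 0.30 and Rplp0 0.056 ± 0.20. In each of these genes mouse 3 was the highest. Rps14 had 0.21 ± 0.40, Rpsa 0.15 ± 0.29, Rpl11 0.10 ± 0.25, Rpl4 0.12 ± 0.18 and Rps6 0.074 ± 0.33. The lowest mean in brain was that of Rpl30, a large subunit protein, at 0.058, -0.17, -0.83 and -0.031 with a mean of -0.24 ± 0.40. It rested on mouse 3, where 1 of its 2 probes read -1.66 and the other -0.0020.

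**Figure D2:**
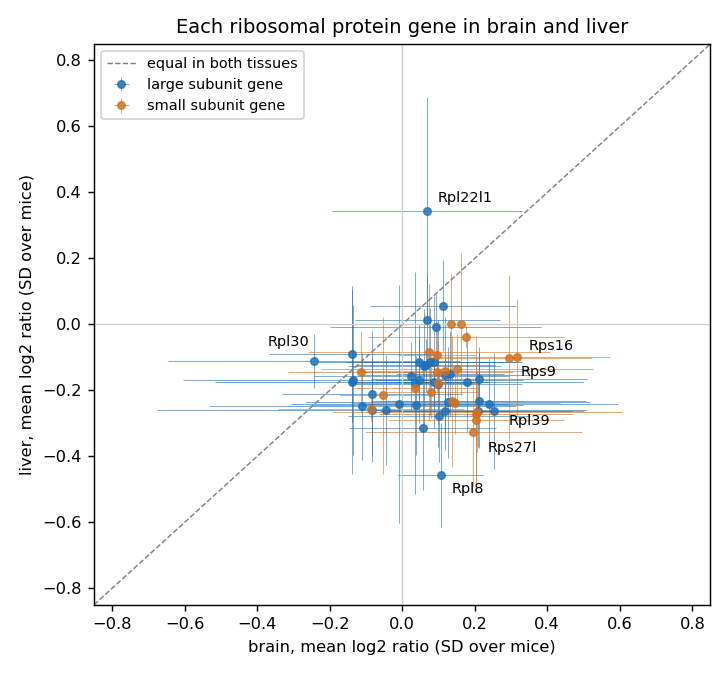
Mean log2 ratio of each ribosomal protein gene in brain (x axis) and liver (y axis), with bars for the SD over 3 or 4 mice, large subunit genes in blue, small subunit genes in orange and a dashed line where both tissues are equal. Of the 59 genes, 56 lie below the line, and Rpl22l1, Rpl30 and Rpl7a lie above it.

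The ratio of each gene in liver was then set against its ratio in brain. Of 59 genes, 56 had a lower ratio in liver, compared with 57.4% of all genes, and 3 a higher one (42.6% of all genes). The median difference was -0.23, and that of all genes was -0.048. Within a mouse, liver was below brain for 45 of 60 ribosomal protein genes in mouse 1 (48.7% of all genes), 51 of 59 in mouse 2 (54.7%), 56 of 59 in mouse 3 (63.8%) and 47 of 58 in mouse 4 (56%). The median difference was -0.17, -0.34, -0.47 and -0.13 in mice 1 to 4. Every liver value lay below every brain value in 12 of 58 genes, compared with 3.69% of all genes, and the reverse held in 0 of 58 (1.28%). All 4 brains were above 0 and all 4 livers below it in 3 of 58 genes, compared with 0.995% of all genes.

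No single gene passed the test of the tissue difference. With limma, 0 of 59 had an adjusted p under 0.05 (0.0236% of all genes had), and the smallest adjusted p was 0.677. At an unadjusted p under 0.05, 15 of 59 were lower in liver (4.61% of all genes) and 0 higher (2.61%). That count was 16 without mouse 1, 3 without mouse 2, 1 without mouse 3 and 7 without mouse 4. Rpl8 had the largest difference, -0.56 ± 0.14 (SE), but this and the gap between its brain values (-0.040, 0.13, 0.24 and 0.088) and its liver values rested on the probe that read -2.09. Without that probe the difference was -0.42 ± 0.17 (SE), with 8 of the 59 genes lower, and the liver value of mouse 4 (0.094) overlapped the brain values. Rps27l had -0.52 ± 0.18 (SE), Rpl39 -0.52 ± 0.17 (SE), Rps29 -0.49 ± 0.17 (SE), Rps28 -0.48 ± 0.19 (SE), Rplp2 -0.47 ± 0.16 (SE), Rpl4 -0.38 ± 0.15 (SE) and Rplp1 -0.44 ± 0.18 (SE). Of these, Rpl39, Rps29 and Rplp2 had no overlap between tissues, and the values of Rps27l, Rps28, Rpl4 and Rplp1 overlapped. Of the 3 genes with a higher ratio in liver, Rpl22l1 had 0.27 ± 0.21 (SE), Rpl30 0.13 ± 0.20 (SE) and Rpl7a, named after its value was seen, 0.049 ± 0.17 (SE).

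Both subunits had a median below 0 in liver and above 0 in brain. In liver, 35 of 38 large subunit genes and 20 of 22 small subunit genes were below 0, with medians of -0.18 and -0.16. In brain, 28 of 37 large and 19 of 22 small subunit genes were above 0, with medians of 0.069 and 0.14. The median of the large subunit minus that of the small subunit in brain was -0.088, -0.0061, -0.038 and -0.075 in mice 1 to 4, with a mean of -0.052 ± 0.037, or -0.012 with each probe taken apart. On the averaged arrays the large subunit was thus the lower one in all 4 brains. On single arrays the measure was above 0 in mouse 3 in Cy5 (0.031) and in mice 2 and 4 in Cy3 (0.049 and 0.0022), and its mean over mice was -0.048 in Cy5 and -0.024 in Cy3. In liver the same measure was -0.028, -0.023, -0.00063 and 0.00050, with a mean of -0.013 ± 0.015. The liver values straddled 0, and no test was made, since the genes of a subunit are not replicates. For the tissue difference the medians were -0.21 for the large and -0.27 for the small subunit, with 34 of 37 and 22 of 22 genes lower in liver.

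Members that are related copies were set side by side. Rps27l, which is known as a p53 target, and Rps27 had liver means of -0.33 ± 0.16 and -0.21 ± 0.24. In brain they had 0.20 ± 0.30 and -0.052 ± 0.12. Their liver values overlapped, and so did their brain values. Rpl7 and Rpl7l1, a copy linked to ribosome assembly, had liver means of -0.12 ± 0.080 and -0.24 ± 0.36. Rpl36a and its intronless copy Rpl36al had -0.21 ± 0.19 and -0.26 ± 0.16, and in brain -0.084 ± 0.25 (3 mice) and -0.084 ± 0.59. Rpl39l, a copy known from male germ cells, was at -0.85, -0.54, -0.34 and 0.079 in liver, with a mean of -0.41 ± 0.39, and had a value in 1 brain only (0.96). Copies this similar, and the many processed pseudogenes of this family, can bind the same cDNA spot, so that the share of each in a value is uncertain.

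The sign of the median differed between the dyes in both tissues. With the mutant RNA in Cy5, the medians of the ribosomal protein genes were 0.082, 0.34, 0.63 and 0.26 in the brains of mice 1 to 4, and with it in Cy3 they were -0.30, -0.22, -0.0020 and -0.091. In liver they were 0.12, -0.099, -0.014 and 0.0020 in Cy5 and -0.62, -0.44, -0.33 and -0.074 in Cy3. Each mouse thus had the higher median on its Cy5 array. Counted by gene, 56 of 61 were above 0 in brain in Cy5 (61.9% of all genes) and 16 of 61 in Cy3 (41.2%). In liver 25 of 61 were below 0 in Cy5 (49.9% of all genes) and 56 of 61 in Cy3 (55.9%). The deviation of the Cy5 array from the mean of its pair, averaged over mice, was positive for 59 of 61 genes in brain (62.7% of all genes) and for 57 of 61 in liver (55.4%). Its median was 0.21 in brain and 0.19 in liver, larger in size than the medians of the averaged values.

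**Figure D3:**
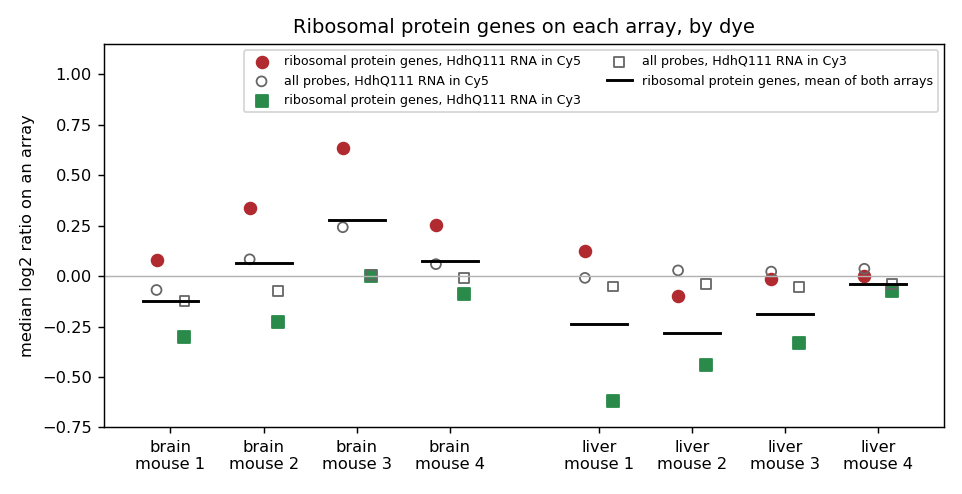
Median log2 ratio on each array (y axis) by tissue and mouse (x axis), for ribosomal protein genes (filled) and all probes (open), with circles for mutant RNA in Cy5, squares for mutant RNA in Cy3 and bars for the median of the ribosomal protein genes after averaging both arrays. The filled circle lies above the filled square in all 8 pairs, by the widest margin in liver of mouse 1 (0.12 and -0.62).

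The median difference between tissues was below 0 in either dye. With only the Cy5 arrays the median of liver minus brain was -0.32, and with only the Cy3 arrays it was -0.23. By mouse it was 0.062, -0.45, -0.60 and -0.22 in Cy5 and -0.35, -0.24, -0.37 and -0.060 in Cy3, so that mouse 1 in Cy5 was the 1 exception. Counted over the 59 ribosomal protein genes with a difference in either dye, 42 were below 0 in both dyes (29.2% of all genes), 1 was above 0 in both (17.6%) and 16 were neither. For the liver mean alone, 22 of 60 were below 0 in both dyes (21% of all genes) and 2 above 0 in both (15.1%). In brain 14 of 59 were above 0 in both (18.3% of all genes) and 3 below 0 in both (15%).

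Among the genes named above, Rps13 in liver had -0.23 in Cy5 and -0.28 in Cy3. Rpl8, with the probe that read -2.09 in mouse 4 included, had -0.18 and -0.73, and Rpl39 -0.085 and -0.44. These 3 genes were below 0 in either dye. Of the 28 genes picked by the naming rules, 12 were below 0 in both dyes in liver. In that tissue 1 was above 0 in both and 15 differed in sign. Rplp2 in liver had 0.034 in Cy5 and -0.56 in Cy3, and Rps27l had 0.025 and -0.68. In brain, Rps16 had 0.74 and -0.10, and Rpl39 0.40 and 0.10. The dye's part in the averaged values was not tested. Across the 61 genes, the dye deviations of brain and liver had a Pearson correlation of 0.34 (Spearman 0.27), and over 8986 named genes it was 0.39 (0.36). The averaged ratios of brain and liver correlated by -0.20 (-0.13) over 60 of these genes and by -0.015 (-0.027) over 8926 genes. The points share spots and pools, and genes are no independent replicates.

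Several probes of a gene gave a check on single values. For the 23 ribosomal protein genes with 2 or more probes, the median range between the probes' means was 0.14 in brain and 0.20 in liver, larger in size than the median of the averaged values in the same tissue. In liver all probes were below 0 for 15 of the 23 genes, and in brain all were above 0 for 14. No share over all genes with several probes was set beside these counts, so they describe these genes only. Rplp0 had probe means of -0.33 and -0.30 in liver, Rps13 of -0.31 and -0.23, and Rps28 of -0.31 and -0.24. Rpl11 had -0.32 and -0.23. The widest range in liver was that of Rpl8, at 0.67. The spread of these genes also differed with the row offset. At an offset of 11 rows, the median SD over mice of their probes was 0.15 in liver and 0.24 in brain. With the names as deposited, at an offset of 0, it was 0.25 and 0.30, and at offsets of 10 and 12 it was 0.23 and 0.23 in liver. The offset was inferred from these same data, so these SDs are no independent check of it. No SD over all probes was set beside them.

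Other genes of translation were described from lists chosen with earlier results of these data known. Of these lists, 0 genes passed the adjusted threshold in limma in brain, liver or the difference. All 6 elongation factor genes were above 0 in brain (median 0.068) and 5 of 6 below 0 in liver (median -0.12), with 0 at an unadjusted p under 0.05. For this list and those that follow, 56.7% of all genes were above 0 in brain, 56.6% were below 0 in liver and 5.24% were lower there at an unadjusted p under 0.05. Eef2, which moves the ribosome along the mRNA, was at -0.35, -0.28, -0.21 and -0.037 in liver, with a mean of -0.22 ± 0.13. Eef1b2, an exchange factor for Eef1a, had -0.14 ± 0.026 in liver and 0.17 ± 0.41 in brain, where Eef1g had 0.16 ± 0.27. The 5 elongation genes below 0 on average in liver were below 0 in all 4 mice, compared with 14.2% of all genes.

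Of 20 initiation factor genes, 19 were below 0 in liver (56.6% of all genes; median -0.10) and 11 above 0 in brain (56.7%; median 0.044), the latter near the share of all genes. The genes lower at an unadjusted p under 0.05 in liver were 2 subunits of eIF3, the large scaffold of initiation: Eif3h had -0.25 ± 0.11 and Eif3i -0.29 ± 0.18. In brain Eif2s3x, a subunit of the factor that brings the initiator tRNA, had 0.24 ± 0.13, and Eif3e had -0.56 ± 0.88. Eif3e rested on mouse 3, at -1.87.

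Of the 10 genes that act on the new chain or sit at the ribosome, 7 were below 0 in liver (median -0.14) and 7 above 0 in brain (median 0.092). Tpt1, whose mRNA also starts with a pyrimidine run, was at -0.32, -0.36, -0.26 and -0.090 in liver with a mean of -0.26 ± 0.12, and was the 1 gene of the list at an unadjusted p under 0.05. Srp9, of the signal recognition particle, had -0.19 ± 0.040 there, and Srp14 had 0.17 ± 0.21 in brain. Both Tpt1 and Srp9 were below 0 in all 4 livers.

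Genes that make ribosomes or signal to them were described next. Of 21 biogenesis genes, 13 were below 0 in liver (56.6% of all genes; median -0.078), and 12 of 19 were above 0 in brain (56.7%; median 0.076), both near the share of all genes. Nucleolin, Ncl, which acts in the processing of ribosomal RNA, had -0.28 ± 0.26 in liver and Gar1, of the pseudouridylation complex, -0.33 ± 0.37. In brain Nop10, of the same complex, had 0.25 ± 0.17 and Gar1 0.15 ± 0.14. The 10 genes of mTOR and the S6 kinases had a median of 0.021 in liver and 0.0038 in brain. Among them Tsc2, an inhibitor of mTOR, had -0.12 ± 0.14 in liver and -0.23 ± 0.33 in brain, Mtor 0.20 ± 0.17 in brain, and Akt1s1 -0.21 ± 0.32 in 3 livers. In both lists 0 genes had an unadjusted p under 0.05 in either tissue.

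**Figure D4:**
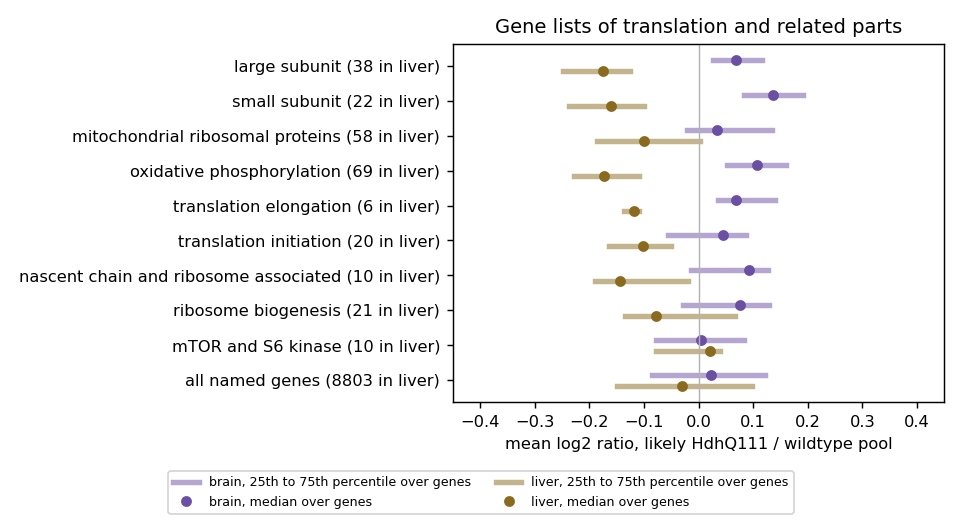
Median over genes (points) and span from the 25th to the 75th percentile over genes (bars) of the mean log2 ratio (x axis) in brain and liver, for the genes of the subunits, for related lists and for all named genes (y axis, with the number tested in liver). The subunits and oxidative phosphorylation have the lowest liver medians of the lists shown (-0.18 and -0.16 for the subunits, -0.17 for oxidative phosphorylation).

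The nearest lists outside the cytosolic ribosome were those of the mitochondrial ribosome and of oxidative phosphorylation. In liver, 42 of 58 mitochondrial ribosomal protein genes were below 0 (56.6% of all genes; median -0.099), and 7 were lower at an unadjusted p under 0.05 (5.24%). Of the oxidative phosphorylation genes, 61 of 69 were below 0 in liver (56.6% of all genes; median -0.17), with 9 lower at an unadjusted p under 0.05 (5.24%), and 58 of 68 were above 0 in brain (56.7%; median 0.11). The dye deviation in liver was positive for 38.3% of mitochondrial ribosomal protein genes, 75.4% of oxidative phosphorylation genes and 93.4% of cytosolic ribosomal protein genes, compared with 55.4% of all genes. The difference between tissues had a median of -0.25 for oxidative phosphorylation genes and -0.15 for mitochondrial ribosomal protein genes, beside -0.23 for the cytosolic ones. Adjusted over all genes in limma, 0 genes of either list passed in brain, liver or the difference.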

How the data were processed

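Brain and liver RNA of 4 mice was analysed on 16 arrays. The deposited table holds normalized log2 ratios for 20794 probes per array. Base 2 was assumed. How the scanner signals were corrected and normalized is not given in the sources used here. Per the labels' protocols, the cDNA carried Cy3 or Cy5 through indirect labelling. Values over 10 in size, positive in all 769 cases with mutant RNA in Cy5 and negative in all 727 with it in Cy3, were set missing. The channel order and the design make HdhQ111 over wildtype the likely direction. The signs of the values over 10 cannot decide it, since they also depend on which dye gave the high signal. Scale, centring and sign remain unstated. Dye-swapped arrays of a mouse correlated by -0.26 to -0.086 over all probes, and arrays of one dye by at least 0.080.

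Symbols came from the platform annotation (12771 probes with 1 symbol; the symbol of probe n names row n + 11, a shift inferred from the data), and all 61 members matched a current gene. Arrays of a pair, then probes of a gene, were averaged. Genes with values in at least 3 mice were tested in limma 3.58.1 under R 4.3.3 (lmFit, eBayes, two-sided, Benjamini-Hochberg over all genes, threshold 0.05). The tests were against 0 in each tissue and for liver minus brain. The test against 0 was also run on simulated data with log2 effects of 1 and 2 in size. It recovered 68 and 93 of 100 changed genes in brain and 75 and 89 of 100 in liver. False calls numbered 6 in brain and 4 in liver. Those effects are larger than the mean of any ribosomal protein gene tested, and the tissue difference was not simulated. The members and lists were chosen with earlier results of these data known. Brain and liver of a replicate number came from one animal, per the labels. Spearman's rho between their deviations from the tissue mean was 0.058, -0.0015, 0.083 and 0.036 for mice 1 to 4. Between a brain and a liver of different mice it lay between -0.098 and 0.079, so rho did not tell matched from unmatched pairs.

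Named with values were the 8 members with the smallest p in each tissue and in the difference, the highest and lowest mean, Rplp0, Rplp1, Rplp2, Rpsa, Rps6, Rpl5, Rpl11, related copies, and 2 genes of each other list per tissue. Marker lists were pituitary, erythroid, microglia or Kupffer, lymphocyte, neuron, oligodendrocyte, astrocyte and hepatocyte. Rps19bp1, which is no ribosomal protein, was left out. Alternatives tried were other centring and scaling, each dye alone, other row offsets, other minimum numbers of mice, probes kept apart, a robust fit, the mouse as a block leaving out each mouse and, chosen after seeing the data, leaving out 1 probe of Rpl8.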

Additional observations from a re-analysis of the deposited data

Results flagged for a closer look

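In brain, 4 values lay apart from the other 3 mice by Dixon's criterion, out of 62 groups of 4 mice examined, and chance gives about 1 in 20. Rpl36al in mouse 2 was at -0.97, with the others between 0.16 and 0.24. Rpl5 in mouse 1 was at -0.40, with the others between 0.15 and 0.22. Rpl7 in mouse 1 was at -0.22, with the others between 0.14 and 0.18. Rps13 in mouse 1 was at -0.47, with the others between -0.010 and 0.079. Of the 4 values, 3 came from mouse 1, which was also lowest over all genes.

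In 3 of 58 ribosomal protein genes all 4 brains were above 0 and all 4 livers below it, as in 0.995% of all genes. The liver-minus-brain difference was -0.26 for Rpl14, -0.28 for Rps18 and -0.49 for Rps29. The opposite signs themselves were not tested, and limma's test of the difference gave an adjusted p of 0.684, 0.681 and 0.677.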

How the results depend on the processing

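In every setting tried, 0 ribosomal protein genes passed the adjusted threshold in brain, in liver or in the difference. Centring each array, with or without scaling to one spread, a robust fit, other minimum numbers of mice, keeping values over 10, leaving out related copies and adding Rps19bp1 kept the direction of the 3 medians. Scaling left 8 genes lower in liver at an unadjusted p under 0.05, instead of 17. With the Cy3 arrays alone, the brain median was -0.14 with 15 genes above 0, and the liver median -0.36 with 29 genes lower at an unadjusted p under 0.05. With the Cy5 arrays alone, the brain median was 0.30, the liver median 0.018 with 25 genes below 0 and 0 lower at that p, and 4 genes were lower in the difference. Row offsets of 0, 10 and 12 gave liver medians of 0.0050, -0.025 and -0.016, with 28, 33 and 32 genes below 0 and 3, 2 and 1 lower at that p. They gave median differences of -0.0034, -0.034 and -0.043, with 28, 35 and 33 genes below 0 and 1, 1 and 0 lower. At offset 0 the brain median was -0.015, with 26 genes above 0. The large-minus-small measure in brain was -0.012 with each probe apart, 0.026 at offset 0 and 0.065 at offset 12. In liver it was 0.0048 after scaling, -0.050 in Cy3, 0.041 in Cy5 and 0.032, -0.087 and 0.027 at offsets 0, 10 and 12. Leaving out 1 mouse gave brain medians of 0.020 to 0.16 with 36 to 49 genes above 0, and liver medians of -0.23 to -0.14 with 54 to 57 genes below 0. It gave median differences of -0.30 to -0.20 with 54 to 56 below 0, and 1 to 18 genes in liver and 1 to 16 in the difference at an unadjusted p under 0.05. It gave a large-minus-small measure of -0.067 to -0.040 in brain and -0.017 to -0.0077 in liver. Fits without a mouse have fewer samples, and the cause of the other changes was not tested. With the mouse as a replicate block the median difference was -0.23, with 56 genes below 0 and 11 instead of 15 lower at that p, and the pairing changed no call. The authors' normalization and signal over background limit what can be read from shifts this small.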
